A study of Mus musculus with 23 samples.

Results

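Genes used as markers of macrophages were followed across 23 mouse oral tumours, 1 array per tumour. The set holds 9 genes, Mrc1, Cd163, C1qa, C1qb, C1qc, Cd14, Cd68, Csf1r and Lyz2, and its members are all probes of the array whose gene symbol in the platform annotation is one of these. The rule found 10 probes for 7 of the 9 genes, of 16593 named genes on the array. No probe carried the symbol Cd68 or Csf1r, so these genes are not analysed here. All 7 genes were among the 9732 that were tested.

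The tumours were grown for 21 days in C57BL/6 mice and measured on the Illumina MouseRef-8 v2 array. There were 5 KHR-N-/- tumours, without Notch1, 4 KHR-N+/- tumours, with 1 copy of it, and 5 KHR tumours, with Notch1 intact. A second tumour type was represented by 4 KR-N-/- and 5 KR-N+/- tumours, with no KR group of intact Notch1. The codes KHR and KR are spelled out nowhere in the labels, and neither the cells in which Notch1 was altered nor the animal of each tumour is stated there, so p-values here measure the spread between tumours.

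Macrophages clear dying cells and debris and adjust their surface receptors to the tissue they live in. Mrc1 is the mannose receptor and Cd163 the scavenger receptor for haemoglobin bound to haptoglobin, both typical of resident and repair-associated macrophages. C1qa, C1qb and C1qc encode the chains of C1q, which starts the classical complement pathway and is made in tissues mostly by macrophages. Cd14 is the co-receptor that hands bacterial endotoxin to Tlr4, and is also found on neutrophils and some epithelia. Lyz2 encodes lysozyme of macrophages and neutrophils.

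The promoters of the 4 genes that passed the test between KHR-N-/- and KHR tumours are shown because they precede the genes with the main difference. They come from RefSeq on build GRCm38.p6 and run from 250 bases before to 50 bases after the start of the gene, 5′ to 3′ on the strand of the gene. That of Mrc1 lies at chr2:14229164-14229463 on the plus strand and that of Cd163 at chr6:124304401-124304700 on the plus strand. Those of C1qb at chr4:136886151-136886450 and of C1qc at chr4:136892865-136893164 are on the minus strand of 1 chromosome. Capitals mark matches, on either strand, to GAGGAA, the core bound by PU.1, a transcription factor of the myeloid lineage.
Mrc1 promoter: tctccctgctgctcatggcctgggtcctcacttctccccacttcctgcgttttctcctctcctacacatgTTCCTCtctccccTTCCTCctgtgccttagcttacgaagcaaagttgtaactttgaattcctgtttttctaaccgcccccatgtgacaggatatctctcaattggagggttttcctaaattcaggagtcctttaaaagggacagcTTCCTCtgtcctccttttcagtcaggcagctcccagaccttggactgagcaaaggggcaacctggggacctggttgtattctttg
Cd163 promoter: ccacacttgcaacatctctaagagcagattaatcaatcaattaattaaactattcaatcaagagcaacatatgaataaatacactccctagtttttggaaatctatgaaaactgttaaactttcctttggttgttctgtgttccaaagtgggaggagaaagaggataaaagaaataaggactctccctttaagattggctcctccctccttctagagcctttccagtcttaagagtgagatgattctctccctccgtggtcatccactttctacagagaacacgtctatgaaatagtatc
C1qb promoter: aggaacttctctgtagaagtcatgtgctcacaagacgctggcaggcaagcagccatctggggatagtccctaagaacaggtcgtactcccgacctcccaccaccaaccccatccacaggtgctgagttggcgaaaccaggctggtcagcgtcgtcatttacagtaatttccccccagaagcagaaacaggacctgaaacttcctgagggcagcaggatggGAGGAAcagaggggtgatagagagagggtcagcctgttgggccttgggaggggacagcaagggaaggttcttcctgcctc
C1qc promoter: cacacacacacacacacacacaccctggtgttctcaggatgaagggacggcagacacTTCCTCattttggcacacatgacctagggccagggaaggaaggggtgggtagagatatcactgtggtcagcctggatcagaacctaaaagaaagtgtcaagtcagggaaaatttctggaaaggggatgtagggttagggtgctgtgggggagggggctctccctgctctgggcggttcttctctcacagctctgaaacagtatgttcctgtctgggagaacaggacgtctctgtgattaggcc

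The core was found 3 times before the start of Mrc1, once each in C1qb and C1qc, and not in the window of Cd163. Of the 6 members whose promoter the table holds (also Cd68 and Lyz2), 4 had a match, against 28.3% of all 32851 promoters. The AP-1 motif TGANTCA was in 1 of the 6 (Cd68) and in 7.81% of all promoters. The CEBP motif TTGCNNAA was likewise in 1 of the 6 (Cd68) and in 10.8% of all. The motif GTGGGAA of RBPJ, the DNA-binding partner of cleaved Notch receptors, was in 0 of the 6 and in 6.38% of all. No match says only that these letters are absent from this window, and none of the matches in these 6 promoters overlapped another motif. A match is a description and not a binding site.

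Levels are log2 values of background-corrected, quantile-normalized bead intensity, and dim probes are compressed toward a floor near 4, so fold changes of dim genes are understated. Mean array intensity ran from 142.4 to 366.4 before normalization and 10353 to 12654 probes were detected per array. The level of Notch1 checks the labels: it was 5.40 to 5.80 in KHR-N-/-, 5.68 to 7.52 in KHR-N+/- and 7.81 to 8.67 in KHR tumours, and 5.61 to 6.52 in KR-N-/- against 7.44 to 8.13 in KR-N+/-. Replicate numbers were given here by the order of the sample titles within each group and are not in the labels. The library labelled KHR-N+/- replicate 3, at 5.68, lay within the KHR-N-/- range. Other KHR libraries stand apart in markers of other cells: replicate 4 had a mean pan-leukocyte level of 7.36, against 5.94 to 6.11 in the remaining KHR arrays, and replicate 5 a mean fibroblast level of 7.22, against 6.22 to 6.35. Counts of called markers were taken with and without these libraries. In RNA of whole tumours, fewer cells of a type and less RNA per cell cannot be told apart.

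As a check that macrophages contributed RNA, Adgre1, which encodes the macrophage surface protein F4/80, was detected on 18 of 23 arrays by its brightest probe. That probe was detected on 5 of 5 KHR-N-/- but 2 of 5 KHR arrays. Another Adgre1 probe was detected on 0 arrays of any group. The integrin gene Itgam and the pan-leukocyte gene Ptprc were on the array and detected on 0 arrays, so these defining leukocyte markers were below the reach of their probes. Among the members, Mrc1 and C1qa were detected on 22 arrays, Cd163 on 19, and C1qb, C1qc, Cd14 and Lyz2 on 23. A further Cd163 probe and a further Lyz2 probe were detected on 0 arrays and were not tested. The probes that stand for the genes are ILMN_1239430 (Mrc1), ILMN_2964560 (Cd163), ILMN_2776431 (C1qa), ILMN_2619620 (C1qb), ILMN_2715840 (C1qc), ILMN_2742075 (Cd14) and ILMN_2939681 (Lyz2).

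**Figure D1:**
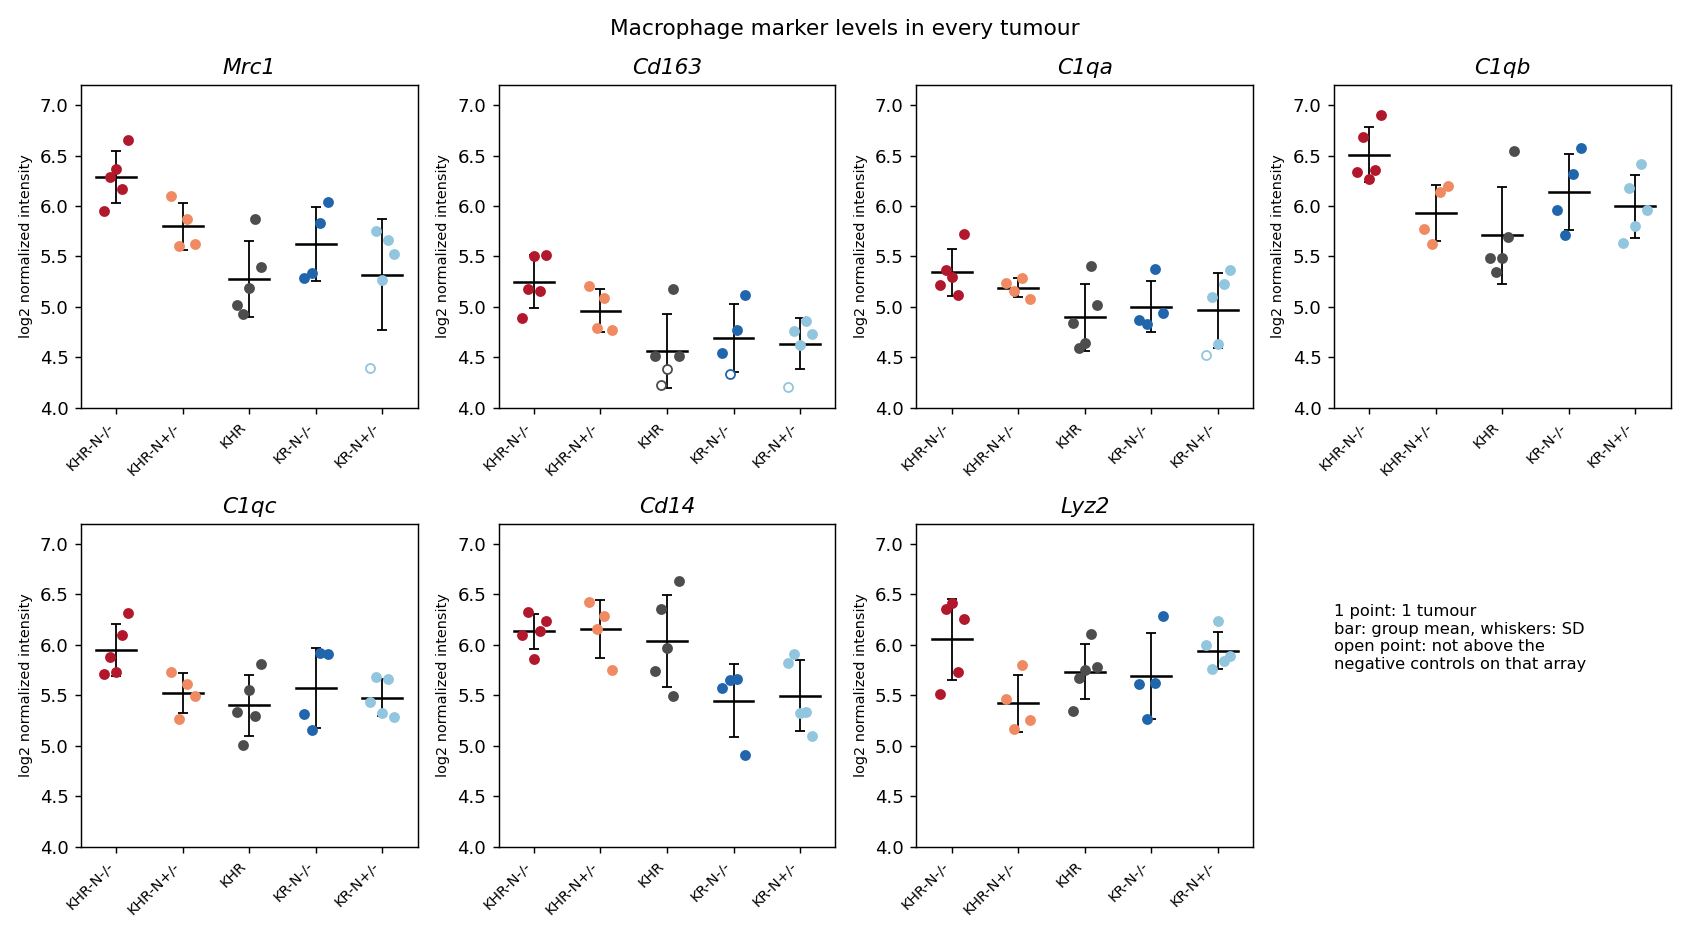
Log2 normalized intensity of the 7 macrophage markers in every tumour, by group, with the group mean and SD; open points were not above the negative controls. The 5 KHR-N-/- tumours lie above the 5 KHR tumours on Mrc1 (5.95 to 6.66 against 4.93 to 5.87), and the KHR-type groups lie above the KR-type groups in mean Cd14.

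Both scavenger receptor genes were highest in KHR-N-/- tumours. Mrc1 had levels of 5.95, 6.29, 6.37, 6.17 and 6.66 in KHR-N-/- tumours, of 6.10, 5.61, 5.87 and 5.62 in KHR-N+/- tumours and of 5.02, 4.93, 5.19, 5.87 and 5.39 in KHR tumours. In the second tumour type Mrc1 was at 5.29, 5.34, 5.83 and 6.04 in KR-N-/- and at 4.39, 5.76, 5.27, 5.66 and 5.52 in KR-N+/-. Every KHR-N-/- tumour was above every KHR tumour, and the highest KHR tumour was replicate 4. The same held before any normalization, where the Mrc1 probe read 141 to 197 intensity units in KHR-N-/- and 109 to 126 in KHR. The order of mean levels was KHR-N-/- (6.29 ± 0.26), KHR-N+/- (5.80 ± 0.23), KR-N-/- (5.62 ± 0.37), KR-N+/- (5.32 ± 0.55) and KHR (5.28 ± 0.37, all SD), and each group overlapped the next.

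Cd163 had levels of 4.89, 5.18, 5.51, 5.16 and 5.51 in KHR-N-/- tumours, of 5.21, 4.79, 5.08 and 4.77 in KHR-N+/- tumours and of 4.51, 4.22, 4.38, 5.18 and 4.52 in KHR tumours. In KHR replicates 2 and 3, at 4.22 and 4.38, the probe was not above the negative controls. Replicate 4 was again the highest KHR tumour, inside the KHR-N-/- range, while the other KHR tumours lay below it. Cd163 ran from 4.33 to 5.12 in KR-N-/- and from 4.20 to 4.86 in KR-N+/-, with 1 array of each group not above the negative controls. The order of the group means was the same as for Mrc1.

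All 3 C1q chains separated KHR-N-/- from most KHR tumours. C1qb was at 6.34, 6.68, 6.27, 6.36 and 6.90 in KHR-N-/-, at 5.78, 5.62, 6.14 and 6.20 in KHR-N+/- and at 5.48, 5.35, 5.48, 5.69 and 6.54 in KHR tumours. C1qc was at 5.71, 5.88, 5.73, 6.09 and 6.32 in KHR-N-/-, at 5.73, 5.27, 5.61 and 5.49 in KHR-N+/- and at 5.33, 5.01, 5.55, 5.29 and 5.81 in KHR tumours. Here the highest KHR tumour was replicate 5, and without it no KHR tumour reached the KHR-N-/- range on either gene. In KR-N-/- and KR-N+/- tumours C1qb ran from 5.72 to 6.57 and from 5.63 to 6.42, and C1qc from 5.15 to 5.91 and from 5.28 to 5.68. C1qa ran from 5.12 to 5.72 in KHR-N-/-, from 5.08 to 5.29 in KHR-N+/- and from 4.59 to 5.40 in KHR tumours, with replicate 4 highest in KHR. The other KHR tumours lay below the KHR-N-/- range on C1qa as well. KHR-N-/- had the highest and KHR the lowest mean for all 3 chains.

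Cd14 did not follow that order. Its levels were 6.09, 6.33, 5.86, 6.14 and 6.24 in KHR-N-/-, 6.42, 6.16, 6.29 and 5.75 in KHR-N+/- and 5.74, 6.35, 5.97, 5.49 and 6.63 in KHR tumours. In KR-N-/- tumours it was at 5.57, 5.65, 5.66 and 4.90, and in KR-N+/- tumours at 5.82, 5.91, 5.32, 5.33 and 5.10. The 3 KHR-type means lay from 6.04 to 6.16 and both KR-type means from 5.44 to 5.50, and each group overlapped the next in this order.

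Lyz2 was read by 2 detected probes that differed in part. By the brighter one, which stands for the gene, it ran from 5.52 to 6.41 in KHR-N-/-, from 5.17 to 5.80 in KHR-N+/- and from 5.35 to 6.11 in KHR, and from 5.26 to 6.28 in KR-N-/- and 5.76 to 6.23 in KR-N+/- tumours. By the other probe it ran from 5.89 to 6.88 in KHR-N-/-, from 5.07 to 5.76 in KHR-N+/- and from 5.27 to 6.03 in KHR. KHR-N-/- had the highest mean and KHR-N+/- the lowest by both probes. Lyz1 is a near-identical neighbour of Lyz2, so signal between the 2 genes may be shared and both are uncertain.

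The first comparison asks how tumours without Notch1 differ from tumours with Notch1 intact. In KHR-N-/- against KHR tumours 4 of the 7 markers were higher and 0 lower, Mrc1, C1qb, Cd163 and C1qc, by limma's moderated test with Benjamini-Hochberg adjustment over 9732 genes (threshold 0.05). Of all genes 7.34% passed in either direction, and 4.57% of all genes passed as higher. Mrc1 was 2.01-fold higher (log2 1.01, SE 0.22, adjusted p = 0.00559), C1qb 1.74-fold (log2 0.80, SE 0.21, adjusted p = 0.0168), Cd163 1.61-fold (log2 0.69, SE 0.17, adjusted p = 0.0148) and C1qc 1.46-fold (log2 0.55, SE 0.16, adjusted p = 0.0426). For C1qa the log2 difference was 0.45 (95% interval 0.10 to 0.79, adjusted p = 0.112), for Cd14 it was 0.09 (interval -0.32 to 0.51) and for Lyz2 0.32 (interval -0.07 to 0.71), or 0.66 by its other probe (adjusted p = 0.12 over all probes). The median difference was 0.55 over the 7 genes and 0.009 over all genes. Groups did not overlap for 1 of the 7, Mrc1, while 3.16% of all genes had every KHR-N-/- array above every KHR array.

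The call of Mrc1 held in all 23 fits that left out 1 array. That of Cd163 was lost without KHR-N-/- replicate 5 or KHR replicate 2, that of C1qb without KHR-N-/- replicate 5 or KHR replicates 1, 2 or 3, and that of C1qc in 8 fits, without KHR-N-/- replicates 2, 4 or 5, KHR-N+/- replicate 3 or KHR replicates 1, 2, 3 or 4. Without KHR replicates 4 and 5, a choice made after seeing the data, 5 of the 7 were higher, C1qa among them, and with KHR replicate 5 and the library labelled KHR-N+/- replicate 3 both left out there were 4. Of all 9732 genes 1072 and 726 were higher in these fits, in that order, against 445 in the main fit. With the mean of skeletal muscle markers as a covariate 0 of the 7 passed: Mrc1 was at 0.73 with adjusted p = 0.254. That fit called 189 of all 9732 genes. The muscle list was also higher in this comparison, with means of 7.36 to 7.68 in KHR-N-/- against 6.60 to 7.22 in KHR. In the main fit 12 of its 17 measured genes were higher, against 4.57% of all genes. Over the 23 arrays its mean correlated at 0.12 with the mean of the 7 markers, and at 0.39 within groups. Its part in the result was not tested further. The count was 2 with median scaling, which moves the median of all genes to 0.11 and gave 148 higher genes among 164 called, against 445 among 714. It was 1 in a fit of only both groups.

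**Figure D2:**
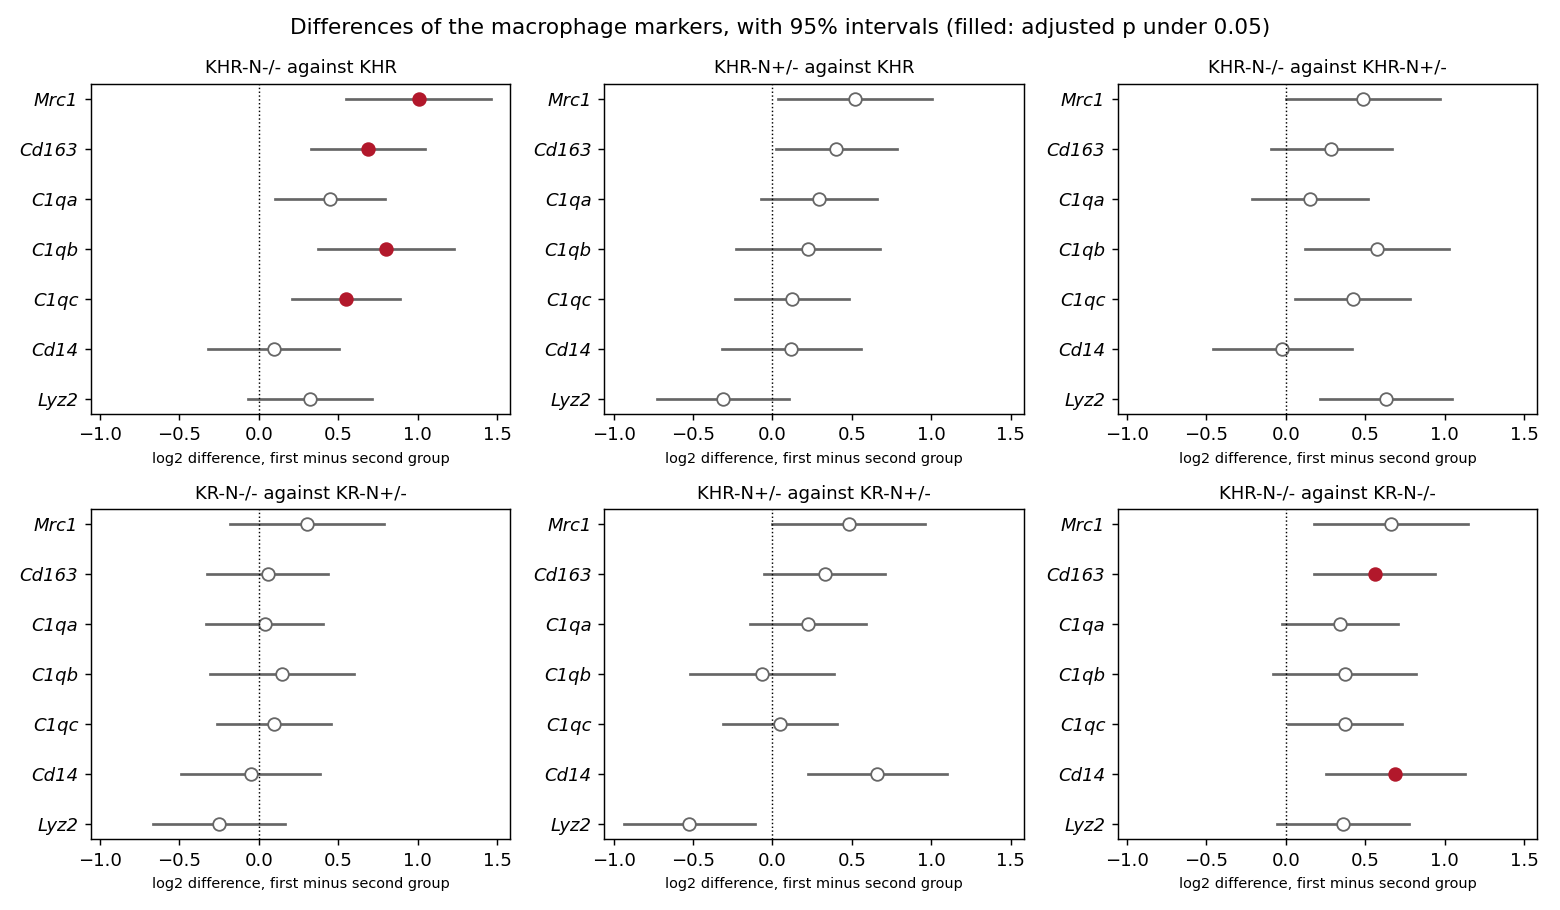
Log2 difference of each marker in the 6 comparisons, first group minus second, with 95% intervals; filled points had an adjusted p under 0.05. Filled points are Mrc1, Cd163, C1qb and C1qc in KHR-N-/- against KHR, and Cd163 and Cd14 in KHR-N-/- against KR-N-/-.

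With 1 copy of Notch1, KHR-N+/- against KHR, 0 of the 7 markers passed in limma, and 2 (Mrc1 and Cd163) had an unadjusted p under 0.05. Of all genes 1.25% passed. Mrc1 differed by 0.52 on the log2 scale (95% interval 0.04 to 1.00) and Cd163 by 0.40 (0.02 to 0.78). Lyz2 was at -0.31 (-0.73 to 0.10). The mean of Mrc1 in KHR-N+/- lay between those of KHR-N-/- and KHR, but neither step was separated by the test. With array quality weights Mrc1 and Cd163 passed, as did 891 of all 9732 genes, against 122 in the main fit.

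Between complete and partial loss, KHR-N-/- against KHR-N+/-, 0 of the 7 passed in limma, as 0.103% of all genes did, and 4 had an unadjusted p under 0.05. Lyz2 had the largest difference, 0.63 (95% interval 0.22 to 1.05, adjusted p = 0.27), and its other probe 0.84. C1qb was at 0.58 (0.12 to 1.03) with every KHR-N-/- tumour above every KHR-N+/- tumour, an arrangement shared by 2.91% of all genes. C1qc was at 0.42, Mrc1 at 0.49 and Cd14 at -0.02. With array quality weights C1qb and Lyz2 passed, as did 265 of all 9732 genes, against 10 in the main fit. This and the preceding comparisons share arrays and are not independent of each other.

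In the KR type, which had no group with Notch1 intact, loss of the second copy left no marker past the threshold. The matching step in the KHR type, KHR-N-/- against KHR-N+/-, also called 0 of the 7. For KR-N-/- against KR-N+/- 0 of the 7 passed in limma, also at an unadjusted p under 0.05, while 16.2% of all genes passed. The 7 differences ran from -0.25 (Lyz2, 95% interval -0.66 to 0.17) to 0.30 (Mrc1, -0.18 to 0.79), with a median of 0.05 against 0.04 over all genes. Cd163 was at 0.05 (-0.33 to 0.44) and C1qb at 0.14 (-0.31 to 0.60). All 7 intervals include 0. For every marker but Lyz2 the interval also includes the difference of that gene in KHR-N-/- against KHR-N+/- tumours. For Lyz2 that difference, 0.63, lay above the interval.

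Whether Notch1 loss acted differently in the 2 types is asked by the interaction, the KHR-N-/- minus KHR-N+/- difference less the KR-N-/- minus KR-N+/- difference. It passed for 0 of the 7 markers and for 0% of all genes in limma, and 1 marker had an unadjusted p under 0.05. That was Lyz2 (0.88, 95% interval 0.29 to 1.47, adjusted p = 0.381), with 0.99 by its other probe. The interaction was 0.18 for Mrc1 (-0.50 to 0.87), 0.43 for C1qb (-0.21 to 1.07) and 0.03 for Cd14 (-0.59 to 0.65).

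Between tumour types, Cd14 and Cd163 were higher in KHR-N-/- than in KR-N-/- tumours. Of the 7 markers these 2 passed, both higher, against 12.8% of all genes in either direction and 6.31% higher. Cd14 was 1.61-fold higher (log2 0.69, SE 0.21, limma adjusted p = 0.034), and every KHR-N-/- tumour was above every KR-N-/- tumour, as for 9.19% of all genes. Cd163 was 1.47-fold higher (log2 0.56, SE 0.18, limma adjusted p = 0.0475), and Mrc1 differed by 0.66 (95% interval 0.18 to 1.15, adjusted p = 0.0634). The other 4 lay between 0.34 and 0.37. Leaving out a single array ended the call of Cd14 for KHR-N-/- replicates 1, 2, 4 and 5 and KR-N-/- replicates 1, 2 and 4, and that of Cd163 for 15 of the 23 arrays, from all 5 groups. None of the 7 (0 by limma) passed with no detection filter or with mean array intensity as a covariate. Array intensity moved with tumour type: it was 232.5 to 310.2 in KHR-N-/- against 149.8 to 260.9 in KR-N-/-, and its part was not tested further. With median scaling 283 of 286 genes called were higher, against 614 of 1247, and the median of all genes was 0.39.

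For tumours with 1 copy of Notch1, KHR-N+/- against KR-N+/-, 0 of the 7 markers passed in limma (5.57% of all genes did) and 2 had an unadjusted p under 0.05. Cd14 differed by 0.66 (95% interval 0.22 to 1.10, adjusted p = 0.068), close to its difference in the tumours without Notch1. Lyz2 was at -0.52 (-0.94 to -0.11, adjusted p = 0.134). With median scaling, which moves the median of all genes to 0.65 here, 4 of the 7 passed (Mrc1, Cd163, C1qa and Cd14) and the median of the 7 was 0.65 as well. There 4534 of 4550 genes called were higher, against 311 of 542. The call of Cd14 was gained when KHR-N+/- replicate 4, KHR replicate 4, KHR replicate 5 or KR-N+/- replicate 2 was left out.

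Across tumours some pairs of markers varied together. Mrc1 and Cd163 had a Pearson correlation of 0.94 over the 23 arrays, and 0.90 for deviations from the group means. C1qb and C1qc reached 0.84, and 0.75 within groups. C1qa went with Mrc1 (0.84) more than with C1qb (0.64) or C1qc (0.57). Cd14 stood outside, at 0.06 to 0.24 with Mrc1, Cd163 and the C1q genes and at -0.44 with Cd163 within groups. Lyz2 was at 0.21 to 0.47 with the genes other than Cd14, and at -0.20 with Cd14. The points share array, depth and normalization, and these values are descriptions.

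**Figure D3:**
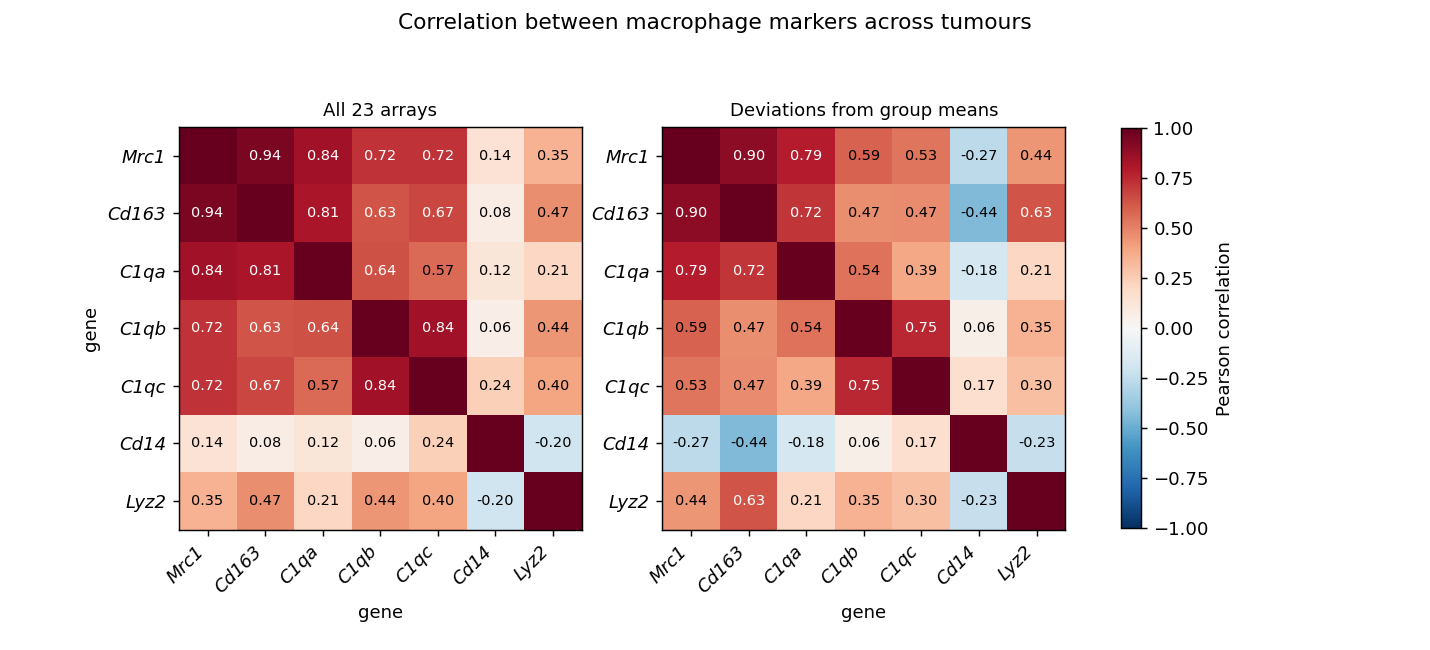
Pearson correlation between each pair of markers over 23 arrays (left) and over deviations from the 5 group means (right). Mrc1 with Cd163 (0.94 and 0.90), Mrc1 with C1qa (0.84 and 0.79) and C1qb with C1qc (0.84 and 0.75) are the highest 3 pairs over all arrays, and Cd14 correlates weakly or negatively with the rest.

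Genes most like the mean of the 7 standardized markers were named by correlation over the 23 arrays. Within groups the 8 nearest were Lyz1 (0.88), the Fc receptor chain Fcer1g (0.82), the endocytic adaptor Dab2 (0.81), Ms4a6d (0.81), Ms4a7 (0.80), C1qtnf2 (0.80), the inhibitory Fc receptor Fcgr2b (0.80) and Adgre1 (0.79). Over all arrays they were Ms4a6d (0.90), Fcgr2b (0.87), the matrix proteoglycan Lum (0.86), the mast cell carboxypeptidase Cpa3 (0.85), the stromelysin Mmp3 (0.81), the mast cell protease Mcpt4 (0.81), Ms4a7 (0.80) and Lyz1 (0.80). In KHR-N-/- against KHR tumours Ms4a6d was at 0.84 (adjusted p = 0.00948) and Fcgr2b at 0.64 (adjusted p = 0.00813), although other probes of these genes gave 0.37 for Ms4a6d, and -0.01 and 0.31 for Fcgr2b. Adgre1 was at 0.33 (adjusted p = 0.377), and at 0.02 by its other detected probe.

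A list of other macrophage and monocyte genes held 40 genes on the array, of which 25 were measured. In KHR-N-/- against KHR 17 of the 25 had a positive difference, with a median of 0.33 against 0.009 over all genes. While 4.57% of all genes passed as higher, 5 of the 25 did, and 0 were lower. The 5 higher genes included Gpnmb, a glycoprotein of phagocytes and pigment cells, at 1.80 (SE 0.20, limma adjusted p = 1.25e-05). Also among them were Stab1, a scavenger receptor of macrophages and sinus endothelium, at 0.74 (SE 0.17, adjusted p = 0.00909), and the lysosomal protease Lgmn at 0.66 (SE 0.13, adjusted p = 0.00254). Gpnmb was also higher in KHR-N+/- against KHR (0.94) and, with Stab1 (0.67), in KR-N-/- against KR-N+/- (0.71), where the 7 markers did not pass. Between types, the Fc receptor Fcgr3 was higher in KHR-N-/- than in KR-N-/- (0.83, detected on 5 of 5 and 2 of 4 arrays) and in KHR-N+/- than in KR-N+/- (0.63, on 4 of 4 and 1 of 5). Without KHR replicates 4 and 5 the count in KHR-N-/- against KHR was 11, and with median scaling or the muscle covariate it was 2. Of all 9732 genes 1072, 148 and 91 were higher in these fits, in that order.

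Of 12 measured genes of classical complement and its regulators, Serping1, the C1 inhibitor, was the one higher in KHR-N-/- against KHR (1.11, SE 0.18, adjusted p = 0.000355), with a list median of 0.13. Over all genes 7.34% passed in that comparison, 445 of 9732 as higher and 269 as lower. None of 16 measured Csf1r ligands and monocyte chemokines passed there (0 by limma, median 0.07). Of 14 measured partners of Cd14 in endotoxin signalling 0 were higher and 2 lower: Tlr2 fell by 0.56 (adjusted p = 0.038), and Tlr6, detected on 0 of 5 KHR-N-/- arrays, was at least 1.27-fold lower. In KHR-N+/- against KR-N+/-, where 5.57% of all genes passed, 3 of these 14 were higher. They were the NF-kappaB inhibitors Nfkbia (1.03) and Tnfaip3 (0.88) and the adaptor Myd88 (0.45). In KHR-N-/- against KR-N-/-, where 12.8% of all genes passed, 1 of the 14 was higher, Ly96, the partner of Tlr4 (0.45). Tlr4 itself fell by 0.83 in KR-N-/- against KR-N+/- (limma adjusted p = 0.00275), detected on 1 of 4 and 5 of 5 arrays.

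Genes named for alternative or classical activation of macrophages were compared beside Mrc1 and Cd163. In KHR-N-/- against KHR 0 of 13 alternative activation genes were higher and 1 was lower, the interleukin 1 receptor antagonist Il1rn (-1.18, SE 0.24, adjusted p = 0.00302), whose other probe gave -0.42. The median was -0.13, and 7.34% of all genes passed there in either direction. Of 10 classical activation genes 0 were higher and 1 was lower there, the costimulatory Cd80 (-0.57, limma adjusted p = 0.0271). Cd80 was detected on 2 of 5 KHR-N-/- and 4 of 5 KHR arrays. In KR-N-/- against KR-N+/-, where 16.2% of all genes passed in either direction, 4 of the 13 alternative activation genes fell. They were Arg1 (-1.41), Il1rn (-1.06, other probe -0.41), Retnla (-0.63) and Stat6 (-0.42). Retnla was detected on 2 of 4 KR-N-/- and 4 of 5 KR-N+/- arrays. Of the classical activation genes the cytokine gene Il1a fell (-1.18) and Socs3, a feedback inhibitor of cytokine signalling, rose (0.67) in that comparison. Il1a was detected on 2 of 4 KR-N-/- and 5 of 5 KR-N+/- arrays. Where Cd163 also passed, in KHR-N-/- against KR-N-/-, the transcription factor gene Klf4 of the alternative list was higher (0.80, limma adjusted p = 0.0137). Other Klf4 probes gave 0.76 and 0.74 and did not pass (limma adjusted p = 0.0886 and 0.126 over all probes). Il1a of the classical list was also higher there (1.14, limma adjusted p = 0.0157), detected on 5 of 5 KHR-N-/- and 2 of 4 KR-N-/- arrays. Il1rn is also made by keratinocytes, and Arg1 by several cell types.

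Other cell types moved with the markers in KHR-N-/- against KHR tumours, where 4.57% of all genes passed as higher. Of 8 measured mast cell genes 3 were higher, Tpsb2 (0.82), Cpa3 (0.76) and Cma1 (0.63), detected on 2, 3 and 1 of 5 KHR arrays. The other 2 Cpa3 probes gave -0.14 and 0.63, and another Cma1 probe 0.44, none past the threshold. The mast cell mean ran from 4.97 to 5.33 in KHR-N-/- against 4.54 to 4.88 in KHR, and correlated at 0.91 with the mean of the 7 markers over 23 arrays. Of 16 measured fibroblast and matrix genes 13 were higher, led by the collagen genes Col6a1 (2.13), Col1a1 (2.03), Col5a1 (1.79) and Col1a2 (1.65), with means of 7.27 to 7.96 in KHR-N-/- against 6.22 to 7.22 in KHR. Fibroblast genes also rose in KR-N-/- against KR-N+/- tumours, 9 of 16, with Col1a1 at 2.37. There 0 of the 7 macrophage markers and 16.2% of all genes passed. The matching step in the KHR type is KHR-N-/- against KHR-N+/-, where 0.103% of all genes passed. In it 0 of the 16 fibroblast genes (median 0.84) and 0 of the 7 markers passed. Of 9 measured pan-leukocyte genes 0 passed in limma, with means of 5.89 to 6.29 in KHR-N-/- against 5.94 to 7.36 in KHR. The part of these cell types in the result was not tested.

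The remaining marker lists were compared in KHR-N-/- against KHR, where 7.34% of all genes passed, 445 of 9732 as higher and 269 as lower. There 2 of 5 dendritic and Langerhans cell genes were lower, Cd207 (-1.05) and Cd74 (-0.73). Their other probes gave -0.49 and -0.70 and did not pass. Cd207 was detected on 2 of 5 KHR-N-/- and 5 of 5 KHR arrays. The mean of this list was 6.69 in KHR replicate 4, against 5.34 to 5.92 in the other KHR tumours and 5.18 to 5.53 in KHR-N-/- tumours. Of 8 neutrophil genes 1 was higher, Retnlg (0.69, detected on 2 of 5 KHR arrays). Of 8 T and NK cell genes and 12 endothelial genes 0 passed in limma, and of 8 B and plasma cell genes on the array 0 were detected on enough arrays to be tested. Of 12 epithelial genes 2 were higher, Itga6 (1.01) and Col17a1 (0.91). In KHR-N-/- against KR-N-/-, where Cd14 passed, 3 of the 8 neutrophil genes were higher (12.8% of all genes passed), S100a8 (1.39), S100a9 (1.35) and Retnlg (at least 1.70-fold). In KHR-N+/- against KR-N+/- 1 of the 8 was (5.57% of all genes passed), the chemokine receptor gene Cxcr2 (0.84). S100a8 and S100a9 are also made by keratinocytes.

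**Figure D4:**
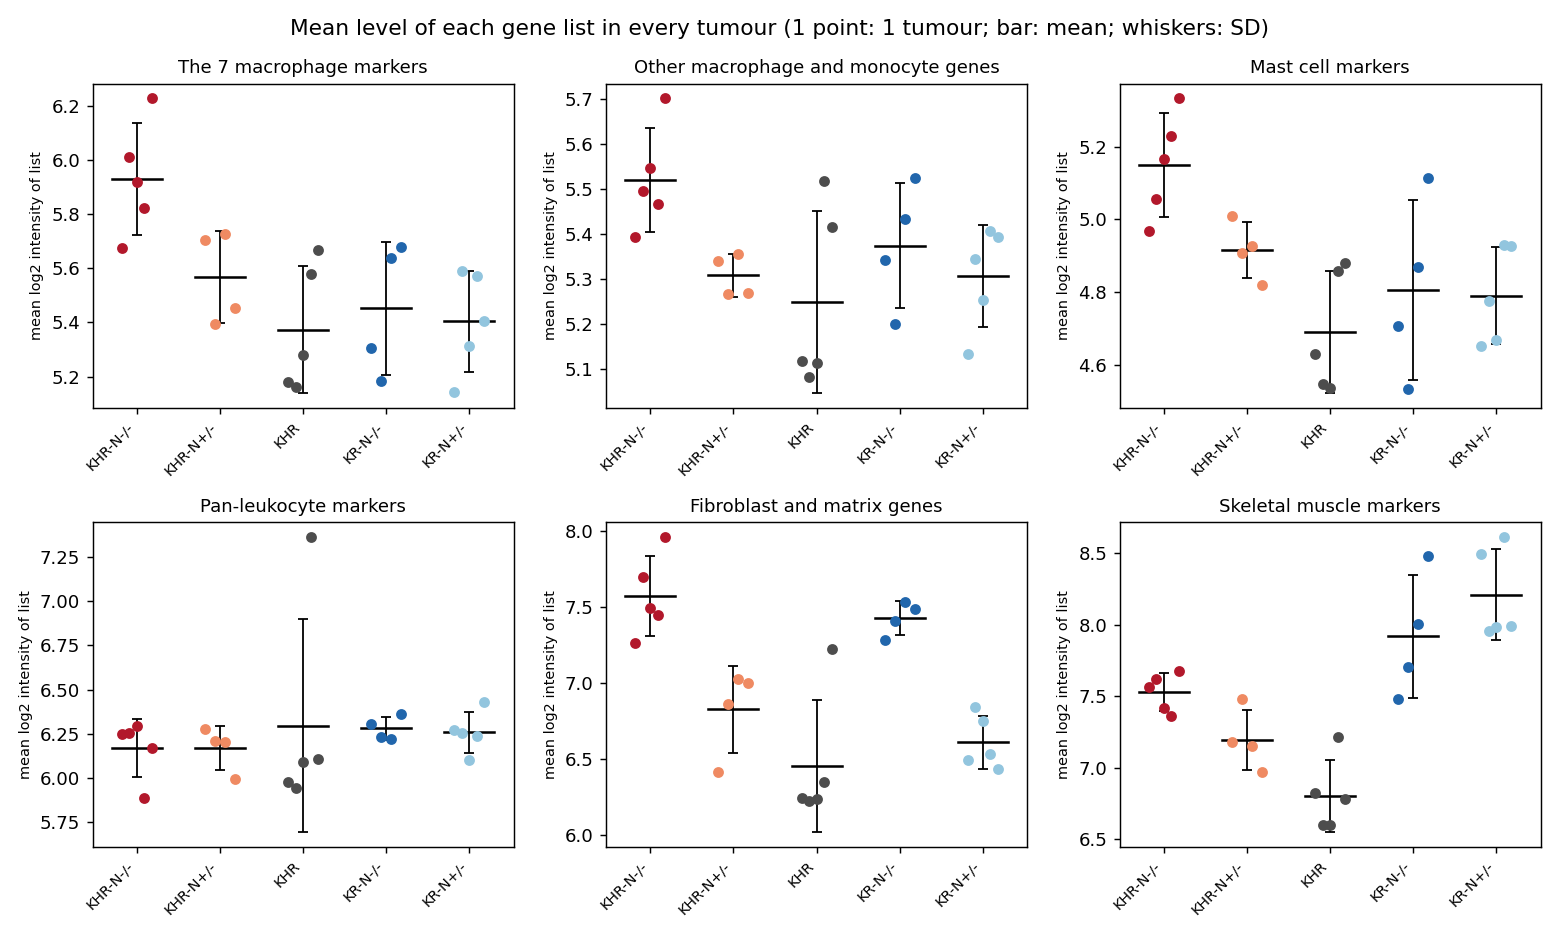
Mean log2 level of the 7 macrophage markers and of 5 other lists in every tumour, by group, with the group mean and SD. The mast cell mean (4.97 to 5.33 in KHR-N-/- against 4.54 to 4.88 in KHR) does not overlap between these groups. Nor do the fibroblast mean (7.27 to 7.96 against 6.22 to 7.22) and the skeletal muscle mean (7.36 to 7.68 against 6.60 to 7.22). The marker means of the lowest KHR-N-/- and the highest KHR tumour are both 5.67 to 2 decimals, the standardized marker means overlap at 0.29, and the pan-leukocyte mean overlaps.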

How the data were processed

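RNA of 23 oral tumours was measured on 1 array each. Per the submitters' processing notes the software was GenomeStudio and Partek. Their versions are not stated there. The scanner table deposited by the authors holds linear bead intensity, not normalized, with bead numbers, bead standard errors and detection p-values, per the file headers. The authors' deposited series table (linear intensity, 26.6% of its values below 0) served as an alternative. Its normalization: not given in the sources used here.

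Intensity was corrected by normexp with detection p-values (offset 16), normalized by quantiles and turned into log2 values (limma 3.58.1, R 4.3.3). Of 25697 probes, 13831 were kept, those whose detection p-value was below 0.05 on 4 or more arrays, and the brightest kept probe stood for each of 9732 genes. A linear model of the 5 groups (18 residual degrees of freedom) was fitted with lmFit and eBayes, and p-values were adjusted by Benjamini-Hochberg within a comparison (threshold 0.05). The model was tested on simulated data. Slides are not given, so no slide term was fitted. The closest 2 arrays had a correlation of 0.993, and none were identical. The number of arrays limits the precision. Arrays averaged 27 to 40.4 beads per probe, and single values of the 7 markers rest on 13 to 58 beads.

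In KHR-N-/- and KHR-N+/- tumours the same-numbered arrays deviated together in all 4 pairs (correlation 0.14 to 0.28). Of these 4, 2 deviated most with the array of their own number. In each other comparison at least 1 same-numbered pair did not deviate together. These numbers were given here by title order within each group, so arrays of 1 number need not belong together. The labels name no pairs, and the main model holds no pairing. The members and gene lists were chosen with earlier results of these data known. Genes were named by a rule: all members, up to 4 called genes of each list per comparison by size of difference, the 8 genes nearest to the mean marker level in each of 2 ways, and Notch1. Alternatives covered background, scaling, filter, model and arrays left out.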

Additional observations from a re-analysis of the deposited data

Results flagged for a closer look

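Single samples lay far from the rest of their group in 5 of the 120 sets examined (each gene or list mean in each group of 4 or 5 samples), where chance gives about 1 in 20. Cd14 in KR-N-/- replicate 4 was at 4.90, with the nearest other KR-N-/- tumour at 5.57. KHR replicate 4 had a mean pan-leukocyte level of 7.36, with the nearest other KHR tumour at 6.11, and a mean T and NK cell level of 5.24, with the nearest at 4.75. KHR replicate 5 had a mean fibroblast and matrix level of 7.22, with the nearest at 6.35. KR-N-/- replicate 4 also had a mean dendritic and Langerhans cell level of 5.87, with the nearest at 5.55.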

How the results depend on the processing

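Counts of markers called were compared over 13 planned settings, 1 added setting and 23 fits that left out 1 array. In KHR-N-/- against KHR the count of 4 became 6 with array quality weights, 5 without KHR replicates 4 and 5, 3 with no background correction and with no detection filter, 2 with median scaling, 1 with only both groups fitted and 0 with the skeletal muscle covariate, and lay between 1 and 4 when 1 array was left out. In KHR-N+/- against KHR and in KHR-N-/- against KHR-N+/- it became 2 and 2 with array quality weights. In KHR-N+/- against KR-N+/- it became 4 with median scaling, and 1 with array quality weights, with the replicate block and without KHR replicates 4 and 5, and lay between 0 and 1 when 1 array was left out. In KHR-N-/- against KR-N-/- the count of 2 became 3 with an offset of 50, with only both groups fitted, with array quality weights and without KHR replicates 4 and 5, 0 without a detection filter and with the array intensity covariate, 1 with the authors' deposited values, with the muscle covariate and with KHR replicate 5 and KHR-N+/- replicate 3 both left out, and lay between 0 and 3 when 1 array was left out. The cause was not tested, except that no filter adds genes to the adjustment and smaller fits hold fewer samples. For KR-N-/- against KR-N+/- and the interaction the count was 0 in all of these fits. The replicate block gave a log2 difference of Cd14, KHR-N+/- against KR-N+/-, of 0.68 (limma adjusted p = 0.0365). There not all same-numbered arrays deviated together. The block changed no other call of a marker. It left 4 of 7 in KHR-N-/- against KHR, where not all same-numbered arrays deviated together either. It left 0 in KHR-N-/- against KHR-N+/-, where all did. Counts over all genes moved more: 714 became 164 with median scaling, 385 with only both groups, 189 after adjusting for muscle, 2230 when arrays were weighted, 1254 and 1865 with the doubted and the added pair of arrays left out. For KHR-N+/- against KHR 122 became 28, 0, 77, 891, 176 and 475 in these settings, in that order, and 70 with no detection filter. The 10 genes of KHR-N-/- against KHR-N+/- ranged from 0 to 265, and the 1581 of KR-N-/- against KR-N+/- from 3 (median scaling) to 2310. Between types, 542 for KHR-N+/- against KR-N+/- ranged from 20 (muscle covariate) to 4550 (median scaling), and 1247 for KHR-N-/- against KR-N-/- from 286 (median scaling) to 2265 (array weights). No called marker changed sign in any of these fits. Signal near background limits Cd163, which was detected on 19 of 23 arrays.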
